A study of Homo sapiens with 18 samples.

Results

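The tensins are a family of 4 adaptor proteins of cell adhesions, encoded by TNS1, TNS2, TNS3 and TNS4. Their gene rows were taken by name from the deposited expression tables of 3 human lung cancer cell lines. The tables held 20701 different gene rows in all. TNS1, TNS2 and TNS3 were analysed in every line and TNS4 in H2023 and ABC-1, which gave 11 gene rows. The family was chosen because TNS1, TNS3 and TNS4 were known to be lower after CCS1477 in one or more of these lines. Levels in untreated cells and changes after CCS1477 are therefore given for the tensins as a description, with no test.

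H460 is labelled a large cell lung carcinoma line, H2023 a squamous and ABC-1 an adenocarcinoma line. The series describes H460 and H2023 as NRF2-activated and ABC-1 as wildtype. Cells of each line were treated for 24 h with CCS1477 at 5 µM, or with its solvent DMSO, with 3 libraries per group and 18 in all. The dose is that of the sample descriptions, since the series text gives the same figure in mM. CCS1477, also called inobrodib, occupies the bromodomain of the acetyltransferases p300 and CBP. Each line is a single established tumour line, and whether the replicates were separate cultures is not given, so errors and p-values reflect the spread of these libraries alone, possibly a technical one. Libraries held 14483976 to 33568167 reads. Library CCS1477 replicate 1 of H460 stood apart, with 0.795% of reads from mitochondrial genes against 1.77 to 2.06% in the other H460 libraries. The labelled types were partly at odds with marker genes. In H2023 the only squamous marker analysed, TP63, had 1.84 CPM (the reads of a gene scaled to a common library total) in DMSO and the simple-epithelium keratin KRT7 had 1573 CPM. KRT7 is on the list of 6 adenocarcinoma markers. NAPSA, the only other one analysed in H2023, had 0.248 CPM in DMSO. In ABC-1 the adenocarcinoma marker NKX2-1 had 1.34 CPM and the keratin KRT7 had 1.89 CPM. Of the 6 squamous markers, SOX2 had 149 CPM and TP63 1.35 CPM there, and the other 4 were not analysed. In these bulk libraries, fewer cells of a kind and less RNA per cell cannot be told apart.

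Tensins link integrins, the receptors by which cells hold the extracellular matrix, to actin filaments. Their C-terminal PTB domain binds the tails of integrin beta chains, and an SH2 domain before it binds proteins phosphorylated on tyrosine. TNS1, TNS2 and TNS3 also carry an N-terminal region that binds actin, whereas the shorter TNS4, also called cten, lacks it. Tensins are typical of mature fibrillar adhesions. In epithelial cells growth factor signalling is known to lower TNS3 and raise TNS4, and TNS4 has been linked to cell migration in carcinomas.

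The 4 genes lie on different chromosomes. On GRCh38, by GENCODE 29, TNS1 (ENSG00000079308) spans chromosome 2, 217799588 to 218033982, on the minus strand. TNS2 (ENSG00000111077) spans chromosome 12, 53046969 to 53064372, on the plus strand. TNS3 (ENSG00000136205) spans chromosome 7, 47275154 to 47582558, on the minus strand. TNS4 (ENSG00000131746) spans chromosome 17, 40475828 to 40501597, on the minus strand. All are protein-coding. To show the sequence around annotated starts of TNS1, TNS2 and TNS3, start-site windows (250 bases before to 50 after an annotated start) were taken from RefSeq on GRCh38.p14. A window for TNS4 was not analysed here. For TNS1 the window with the most kinds of motif match is printed (chr2:217944021-217944320, minus strand), and for TNS2 the one with matches to the antioxidant element (chr12:53046741-53047040, plus strand). For TNS3 the window with GC boxes is printed (chr7:47582062-47582361, minus strand). Capitals mark matches on either strand to the motifs searched.
TNS1: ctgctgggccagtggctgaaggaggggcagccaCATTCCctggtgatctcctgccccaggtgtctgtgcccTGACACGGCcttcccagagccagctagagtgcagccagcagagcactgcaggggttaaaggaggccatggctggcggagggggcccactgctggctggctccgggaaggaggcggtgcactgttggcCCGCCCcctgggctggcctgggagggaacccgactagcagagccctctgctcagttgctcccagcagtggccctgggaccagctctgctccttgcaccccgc
TNS2: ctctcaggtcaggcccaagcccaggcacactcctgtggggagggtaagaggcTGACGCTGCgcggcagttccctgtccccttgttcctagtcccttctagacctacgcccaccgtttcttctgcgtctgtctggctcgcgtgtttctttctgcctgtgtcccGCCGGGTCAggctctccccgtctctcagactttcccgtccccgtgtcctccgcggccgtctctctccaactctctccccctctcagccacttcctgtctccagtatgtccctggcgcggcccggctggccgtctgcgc
TNS3: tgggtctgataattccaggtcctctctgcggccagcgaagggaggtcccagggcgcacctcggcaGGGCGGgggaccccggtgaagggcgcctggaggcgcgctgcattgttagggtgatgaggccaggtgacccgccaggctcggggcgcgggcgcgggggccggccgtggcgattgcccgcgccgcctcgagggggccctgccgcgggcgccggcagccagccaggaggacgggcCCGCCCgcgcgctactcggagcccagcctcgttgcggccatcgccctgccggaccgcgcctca

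The motifs were GGAATG of TEAD factors, TGANTCA of AP-1, TGACNNNGC as the core of the antioxidant response element bound by NRF2, GGGCGG as the GC box, and the CArG box of SRF by name. They do not share letters in the printed windows. In the printed TNS1 window the matches are a TEAD match (CATTCC on the printed strand), TGACACGGC and a GC box. The TNS2 window holds matches to the antioxidant element in both orientations, TGACGCTGC and GCCGGGTCA. The printed TNS3 window holds GC boxes only, and neither of the other TNS3 windows held any match. Among 35116 windows of all genes, 14.0% held the TEAD letters, 7.71% AP-1, 13.3% the antioxidant core, 45.0% a GC box and 1.29% a CArG box. These matches describe letters only. The data do not show which start site was in use, and RefSeq lists several windows for each gene, 5 for TNS1 and 3 each for TNS2 and TNS3. The printed windows were picked by their matches, so the shares over all windows are no measure for them. Among those not printed are a TNS2 window with GC boxes and a TNS1 window with no match.

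TNS3, a tensin of focal and fibrillar adhesions, was the most abundant of the tensins analysed in every line, also per length, and was lower after CCS1477 in each of them. In H460 its level was 95.9, 89.9 and 86.5 CPM in DMSO and 32.4, 36.4 and 30.8 CPM after CCS1477. In H2023 it was 346, 358 and 347 CPM in DMSO and 106, 110.1 and 96.6 CPM after CCS1477. In ABC-1 it was 499.6, 512 and 503 CPM in DMSO and 141, 139 and 136 CPM after CCS1477. Every treated library lay below every DMSO library of its line, and the 3 untreated lines did not overlap, with ABC-1 highest and H460 lowest. After CCS1477 the order of the lines was the same, and the level left was 36.5%, 29.7% and 27.5% of that in DMSO in H460, H2023 and ABC-1. The log2 fold changes of CCS1477 over DMSO were -1.92 ± 0.04 in ABC-1, -1.80 ± 0.05 in H2023 and -1.52 ± 0.07 in H460 (± SE, 3 against 3 libraries throughout). Without the H460 library that stood apart, TNS3 in H460 had a log2 change of -1.51.

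TNS2, a tensin that has been studied in insulin signalling, was lower after CCS1477 in H460 and H2023 and scarce in ABC-1. In H460 it had 21.1, 23.3 and 20.1 CPM in DMSO and 5.18, 5.21 and 4.04 CPM after CCS1477. In H2023 it had 36.8, 41.6 and 41.1 CPM in DMSO and 10.3, 9.58 and 8.00 CPM after CCS1477. The groups did not overlap in either line, and the log2 changes were close, at -2.21 ± 0.11 in H460 (-2.26 without the library that stood apart) and -2.13 ± 0.10 in H2023. In ABC-1 the level was 0.764, 1.02 and 1.17 CPM in DMSO and 1.60, 1.60 and 1.00 CPM after CCS1477, groups that overlapped, with a log2 change of 0.36 ± 0.25. That line gave 12 to 28 reads per library, and over the groups the CPM ratio of treated to untreated was 1.44 (exact 95% counting interval 0.975 to 2.14). The change of TNS2 in ABC-1 thus lay within counting error.

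TNS2 overlaps 2 genes of the opposite strand that are not microRNAs, the antisense RNA TNS2-AS1 over 7470 bases and SPRYD3 over 57 bases at its end. The libraries were directional, but the use of strand in counting is not given, so reads in the overlap may have been counted for either gene. TNS2-AS1 fell in H460, from 3.20 ± 0.380 to 1.77 ± 0.283 CPM (log2 change -0.88 ± 0.17, limma adjusted p = 0.00234), and was higher after CCS1477 in ABC-1, 2.92 ± 0.140 against 1.42 ± 0.222 CPM (0.87 ± 0.18, adjusted p = 0.00124). In H2023 its log2 change was 0.04 ± 0.23 (adjusted p = 0.883). In DMSO, TNS2-AS1 stood far below TNS2 in H460 and H2023 and above TNS2 in ABC-1, in CPM that are not corrected for length. After CCS1477 it had 1.77 CPM against 4.81 CPM for TNS2 in H460, and 1.84 against 9.29 CPM in H2023. In treated ABC-1 it had 2.92 against 1.40 CPM. The part of these reads in the TNS2 values was not tested. TNS1 also overlaps an antisense gene over 13909 bases, and microRNA genes lie inside TNS1 and TNS2.

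**Figure D1:**
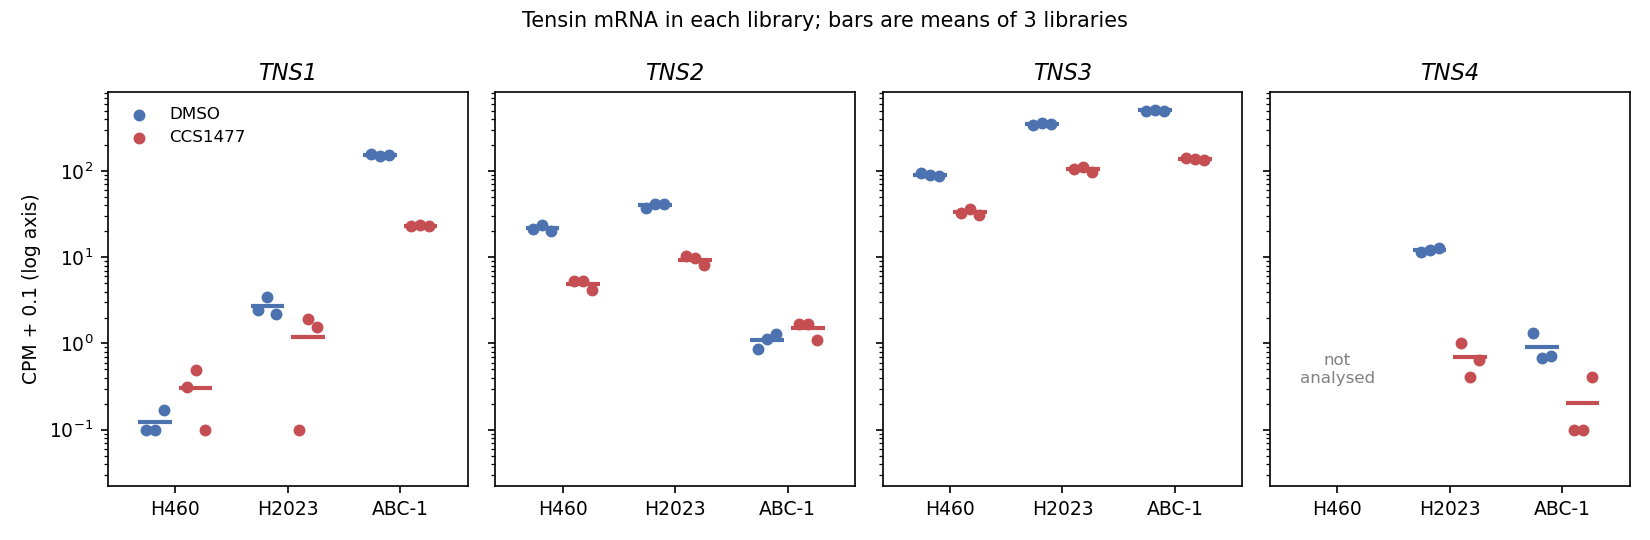
Level of each tensin in every library, as CPM plus 0.1 on a log axis, by cell line, with DMSO in blue and CCS1477 in red; short bars are group means of 3 libraries. TNS3 is lower after CCS1477 in all 3 lines, TNS2 in H460 and H2023, TNS1 in ABC-1 and TNS4 in H2023, and points at 0.1 are libraries with no read of the gene.

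TNS1, the founding tensin and an actin-capping component of fibrillar adhesions, was abundant in ABC-1 alone. There it had 156, 149 and 153 CPM in DMSO and 22.7, 23.6 and 22.7 CPM after CCS1477. The groups lay far apart relative to their spread, 15.1% of the level was left, and the log2 change was -2.77 ± 0.04.

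In H2023 the TNS1 gene row had 2.36, 3.34 and 2.08 CPM in DMSO and 0, 1.84 and 1.45 CPM after CCS1477. CCS1477 replicate 1, the library at 0, was also the only one with reads on a separate TNS1 transcript row (ENST00000651849), where it had 33 reads. The log2 change of the gene row was -1.58 ± 0.64. It was -0.61 without CCS1477 replicate 1 of H2023. With the transcript row added to the gene, a setting chosen after seeing the data, it was -0.50 ± 0.22 and the group means were 2.59 ± 0.663 CPM in DMSO and 1.82 ± 0.348 CPM after CCS1477 (± SD). With the row added, the treated library had 2.15 CPM, above the lowest DMSO library, so the groups overlapped.

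TNS1 was near the limit of detection in H460. The DMSO libraries held 0, 0 and 2 reads and the CCS1477 libraries 7, 12 and 0. Over the groups this makes a CPM ratio of 8.12 (exact 95% counting interval 1.96 to 71.9). The groups overlapped, since 1 treated library had no read.

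TNS4, the short tensin without the actin-binding region, was measured in H2023 and ABC-1 and was the higher in H2023. Its level there was 11.3, 12.0 and 12.7 CPM in DMSO and 0.912, 0.307 and 0.546 CPM after CCS1477. The groups were widely separated, and over them 616 reads in DMSO stood against 28 after CCS1477. The CPM ratio left was 4.86%, a level 20.6 times lower (exact 95% counting interval 14.1 to 31.2). The log2 change of the deposited values was -3.98 ± 0.24. The gene passed the filter on low values through its DMSO libraries alone. Its transcript row (ENST00000394072) held a further 13 reads in DMSO replicate 2, and 3 and 4 reads in CCS1477 replicates 1 and 3.

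In ABC-1 the TNS4 row held 19, 9 and 9 reads in DMSO and 0, 0 and 5 reads after CCS1477. Every treated library was below every DMSO library. The ratio over the groups was 0.123 (exact 95% counting interval 0.0378 to 0.314). With so few reads TNS4 in ABC-1 did not pass the filter on low values, 1 CPM or more in 3 or more of a line's 6 libraries, nor did TNS1 in H460.

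In all, 9 of the 11 gene rows passed that filter. Of these, 8 were lower after CCS1477 in every treated library than in any DMSO library, including TNS1 in H2023, where adding the transcript row removed the separation. For comparison, 34.6% of all tested genes in ABC-1, 34% of those in H2023 and 31.7% of those in H460 had treated libraries that all lay below the DMSO libraries, and 35.8%, 31.2% and 32.3% had them all above. Since the tensins were chosen on this contrast, nothing is read from their count. The choice set no threshold. The smallest of the 8 log2 changes was that of TNS3 in H460, at -1.52 ± 0.07, and the row left outside was TNS2 in ABC-1, at 0.36 ± 0.25.

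**Figure D2:**
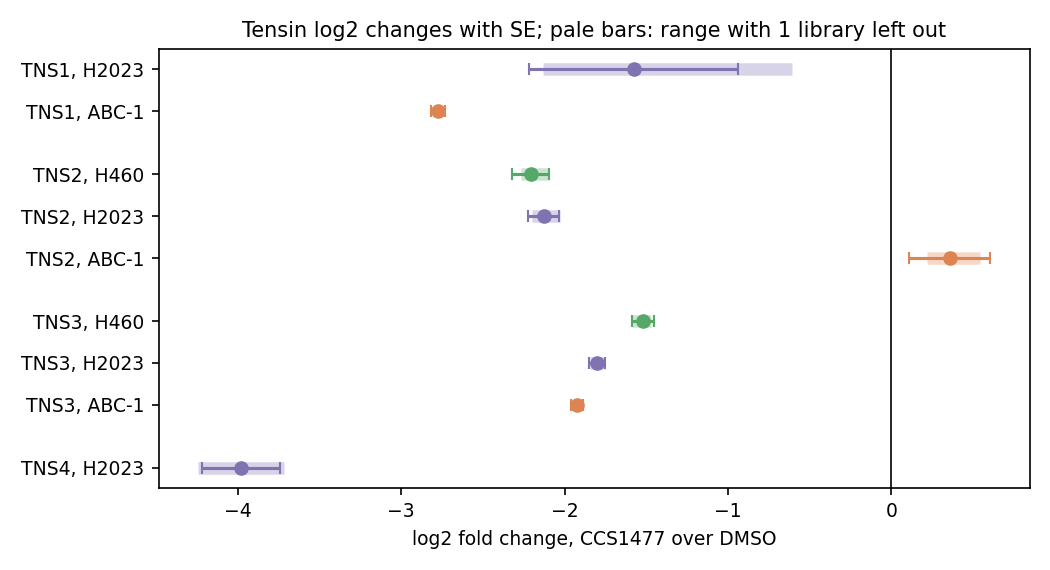
Log2 fold change of CCS1477 over DMSO for the 9 tensin rows past the filter, coloured by line, with points and thin bars for the estimate and its SE and pale bars for the range when each library is left out in turn. The wide bar is TNS1 in H2023, which runs from -2.13 to -0.61, while the TNS3 values keep within -1.94 and -1.47 over the 3 lines.

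Levels of different genes were compared per length, as CPM per kilobase of merged exons (RPKM). The merged exons measured 16.281 kb for TNS1, 8.093 kb for TNS2, 11.797 kb for TNS3 and 4.847 kb for TNS4. In untreated ABC-1, TNS3 had 42.8 ± 0.553 RPKM (mean ± SD, n = 3) and TNS1 9.38 ± 0.212 RPKM. TNS4 with 0.166 ± 0.0731 RPKM and TNS2 with 0.122 ± 0.0256 RPKM came last, and these neighbours overlapped. In untreated H2023 the order was TNS3 with 29.7 ± 0.583 RPKM, TNS2 with 4.92 ± 0.327 RPKM, TNS4 with 2.48 ± 0.151 RPKM and TNS1 with 0.159 ± 0.0407 RPKM. No neighbours in that order overlapped. In untreated H460, TNS3 had 7.70 ± 0.405 RPKM, TNS2 2.66 ± 0.205 RPKM and TNS1 0.00145 ± 0.00251 RPKM. The second tensin of each line was therefore TNS2 in H460 and H2023 and TNS1 in ABC-1.

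Summed over the tensins, the level per length went from 10.4 ± 0.476 to 3.42 ± 0.324 RPKM in H460, where TNS4 is not part of the sum. It went from 37.3 ± 0.926 to 10.2 ± 0.697 RPKM in H2023 and from 52.5 ± 0.311 to 13.4 ± 0.248 RPKM in ABC-1. TNS3 held most of the sum before and after treatment. Its share was 74.3% in DMSO and 82.3% after CCS1477 in H460, 79.7% and 86.9% in H2023, and 81.6% and 88.0% in ABC-1. The share of TNS1 in ABC-1 was 17.9% in DMSO and 10.6% after CCS1477, that of TNS2 in H460 25.7% and 17.3%, and that of TNS4 in H2023 6.64% and 1.20%. In each line TNS3 thus had a larger share of a smaller sum.

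**Figure D3:**
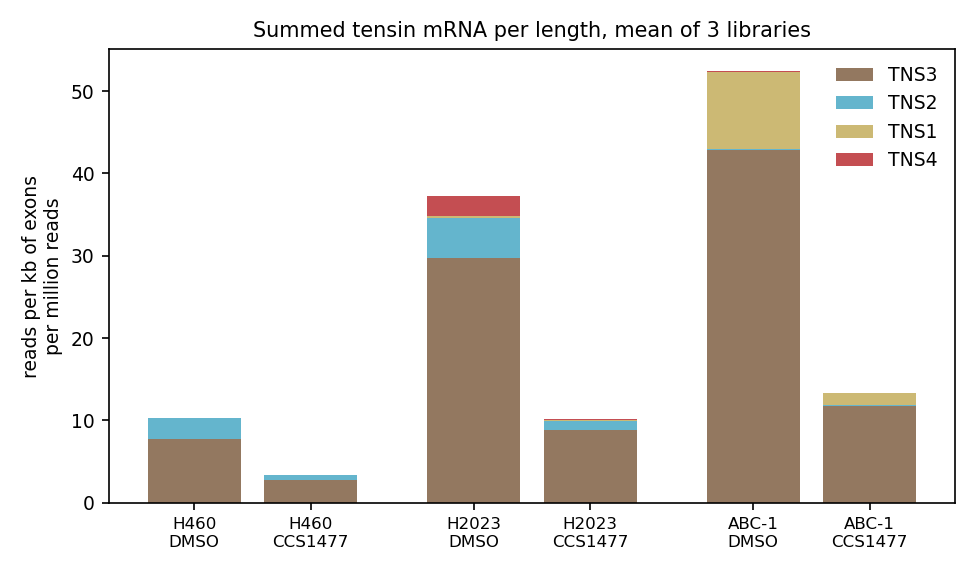
Mean level of the tensins per length (RPKM, CPM per kilobase of merged exons, n = 3 libraries), stacked by gene, for each line with DMSO or CCS1477; TNS4 is not part of the H460 bars. The stack is 10.4 RPKM in untreated H460, 37.3 RPKM in H2023 and 52.5 RPKM in ABC-1, and 3.42, 10.2 and 13.4 RPKM after CCS1477, with TNS3 the largest part of each.

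The genes most like each tensin were found by Pearson correlation of log2(CPM + 1) over the 18 libraries, as a description. The libraries fall into 6 groups of a line and a treatment, and those of a group share their source, so the values carry no p. For TNS3 the highest were PARD3, a cell polarity scaffold (r = 0.993), GMPS of purine synthesis (0.988), CAPN2, a calpain that cuts adhesion proteins (0.987), the histone deacetylase HDAC7 (0.984) and the kinase subunit CSNK2B (0.980). PARD3 itself moved less than TNS3, with means of 55.96 CPM in untreated H460, 81.2 in H2023 and 88.0 in ABC-1 and 45.03, 58.4 and 66.2 CPM after CCS1477. For TNS2 they were SEMA6B, a transmembrane semaphorin (0.984), the kinases SGK1 (0.982) and HIPK2 (0.981), the cytokine receptor IL6R (0.974) and the cochaperone BAG2 (0.972). SEMA6B followed TNS2 in size as well, with 28.2 CPM in DMSO and 7.30 CPM after CCS1477 in H460, 33.5 and 8.44 CPM in H2023, and 1.22 and 1.58 CPM in ABC-1.

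For TNS1 the most alike were the G protein subunit GNAQ (0.989), the channel TMEM63A (0.988), C2CD4A (0.986), the calpain CAPN1 (0.986) and ARHGAP23, a GTPase activating protein (0.986). ARHGAP23 had 573 CPM in DMSO and 204 CPM after CCS1477 in ABC-1, against 39.7 and 31.7 CPM in H2023. For TNS4 only the 12 libraries of H2023 and ABC-1 could be used, and the highest were JADE1, a scaffold of a histone acetyltransferase complex (0.989), the semaphorin SEMA3C (0.987), SVEP1, an integrin ligand of the extracellular matrix (0.980), GPAT3 of lipid synthesis (0.978) and CRYBG1 (0.976). SVEP1 had 97.4 CPM in DMSO and 32.3 CPM after CCS1477 in H2023, and 31.6 and 21.2 CPM in ABC-1. Among the tensins themselves the correlation over the 18 libraries was 0.72 between TNS1 and TNS3, -0.71 between TNS1 and TNS2 and -0.06 between TNS2 and TNS3. Over the 12 libraries of H2023 and ABC-1, TNS4 had 0.84 with TNS2, 0.48 with TNS3 and -0.39 with TNS1.

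Genes that work with tensins were listed with earlier results of these data known, so tests on them are not independent of those results. These genes were not used in the choice of the tensins and were tested. They form 6 lists with 73 genes, the integrin beta chains, the activators and linkers of integrin tails, the ILK-PINCH-parvin complex with fibronectin and its receptor chain ITGA5, focal adhesion kinases and scaffolds, binding partners of the SH2 and PTB regions, and cytoskeletal genes driven by SRF. Calls are limma adjusted p under 0.05 over all genes of a line, and 56.1% of genes in H460, 60.6% of those in H2023 and 66.1% of those in ABC-1 were called in either direction. In H2023, 39 of 63 tested partner genes fell and 11 rose, where 31.9% of all tested genes fell and 28.6% rose. In H460, 23 of 61 fell and 22 rose, where 27.9% and 28.2% of all genes did. In ABC-1, 20 of 57 fell and 21 rose, where 32.6% and 33.5% of all genes did. With scaling by library totals, the ABC-1 partner genes were 20 lower and 28 higher. Of these calls 58.3% were higher, against 56.4% of the calls among all tested genes of ABC-1 under that scaling. The median log2 change of the partner genes was -0.29 in H2023, -0.02 in H460 and 0.02 in ABC-1, and that of all tested genes -0.01, 0.00 and 0.01. The difference between lines was not tested.

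The integrin beta chains, whose tails tensins bind, did not move alike. In H2023, 5 of 6 tested chains fell and 1 rose, where 31.9% of all tested genes fell and 28.6% rose. ITGB1, the partner of most matrix-binding alpha chains, fell there from 1404 ± 35.5 to 996.3 ± 32.8 CPM (log2 change -0.55 ± 0.04, adjusted p = 4.83e-07), and so did ITGB5 (-0.83 ± 0.04), ITGB4 of hemidesmosomes (-0.77 ± 0.06) and ITGB8 (-1.46 ± 0.13). In H460, 2 of 5 fell and 2 rose, where 27.9% and 28.2% of all tested genes did. The call of ITGB5 in H460 (-0.26 ± 0.07, adjusted p = 0.0159) was lost under 5 alternatives, with adjusted p of 0.0503 to 0.0648. ITGB8 fell from 56.7 ± 1.65 to 15.7 ± 0.231 CPM (-1.91 ± 0.05, adjusted p = 1.72e-07), whereas ITGB4 rose from 3.77 ± 0.420 to 9.50 ± 1.01 CPM (1.23 ± 0.12). ITGB3, the beta chain of a vitronectin receptor, rose in both lines from low levels, from 0.243 ± 0.0158 to 1.83 ± 0.408 CPM in H460 and from 0.325 ± 0.198 to 2.56 ± 0.583 CPM in H2023, and passed the filter through its treated libraries alone. ITGB6 fell in H2023 from 1.81 ± 0.127 to 0.0826 ± 0.0335 CPM, and passed it through DMSO libraries alone. In ABC-1 the 1 call among 4 tested chains was ITGB1, higher after CCS1477, from 788 ± 14.7 to 996.4 ± 12.3 CPM (0.28 ± 0.04, adjusted p = 4.48e-05). Of all tested genes in ABC-1, 32.6% fell and 33.5% rose.

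Among the activators and linkers of integrin tails, 8 of 12 tested genes fell and 4 rose in H2023. In H460, 3 of 12 fell and 5 rose, and in ABC-1 5 of 12 fell and 4 rose. Of all tested genes, 31.9% fell and 28.6% rose in H2023, 27.9% and 28.2% in H460, and 32.6% and 33.5% in ABC-1. FLNA, the filamin that competes with talin for integrin tails, rose in ABC-1, with 1088 ± 34.4 CPM in DMSO and 2521 ± 36.5 CPM after CCS1477 (1.15 ± 0.04, adjusted p = 7.20e-10). TLN1, the talin that activates integrins, also rose in ABC-1 (0.43 ± 0.04), and TLN2 rose in H460 from 7.78 ± 2.07 to 29.5 ± 1.07 CPM (1.86 ± 0.16). TLN2 rose in H2023 as well (0.70 ± 0.09). FERMT3, the kindlin of blood cells, fell in H460 from 88.6 ± 0.966 to 22.7 ± 2.17 CPM (-2.04 ± 0.07, adjusted p = 4.13e-07). Of 3 leukocyte markers only CD68 was analysed in H460, with 14.3 to 14.6 CPM in DMSO and 14.5 to 14.9 CPM after CCS1477. ACTN4, an actinin, fell in ABC-1 (-0.38 ± 0.04). In H2023 the epithelial kindlin FERMT1 (-0.78 ± 0.08), the filamin FLNC (-0.82 ± 0.05) and the actinin ACTN1 (-0.48 ± 0.04) fell. FERMT1 also fell in ABC-1 (-0.80 ± 0.08) and ACTN1 in H460 (-0.40 ± 0.04).

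In the list of ILK, PINCH and parvin with fibronectin, FN1 and PARVA moved in opposite directions in each line. FN1, fibronectin, the matrix ligand of fibrillar adhesions, fell from 1613 ± 105 to 996 ± 18.5 CPM in H460 (-0.77 ± 0.06, adjusted p = 1.93e-05), with -0.64 ± 0.05 in H2023 and -0.74 ± 0.03 in ABC-1. PARVA, an actin-binding parvin, rose on the log2 scale by 0.65 ± 0.07 in ABC-1, 0.65 ± 0.04 in H2023 and 0.31 ± 0.06 in H460. ITGA5, the fibronectin receptor chain, rose in H460 (0.38 ± 0.06) and in ABC-1, there from 0.948 ± 0.315 to 3.92 ± 0.986 CPM (1.74 ± 0.24). COL1A1, the 1 fibroblast marker of 3 analysed, had 6.84 to 8.03 CPM in untreated and 22.6 to 23.6 CPM in treated ABC-1, and its part in these values was not tested. Over the list, 2 of 7 fell and 3 rose in H460, where 27.9% and 28.2% of all tested genes did. In H2023, 3 of 7 fell and 2 rose, against 31.9% and 28.6% of all tested genes. In ABC-1, 1 of 7 fell and 4 rose, against 32.6% and 33.5%.

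Of the focal adhesion kinases and scaffolds, 9 of 14 fell and 1 rose in H2023, where 31.9% and 28.6% of all tested genes did. In H460, 6 of 13 fell and 4 rose, against 27.9% and 28.2% of all tested genes. In ABC-1, 4 of 13 fell and 5 rose, against 32.6% and 33.5%. SRC, the kinase that phosphorylates adhesion proteins, fell from 147 ± 10.5 to 78.4 ± 9.50 CPM in H460 (-0.98 ± 0.09, adjusted p = 4.71e-05), from 31.8 ± 1.02 to 21.3 ± 2.05 CPM in H2023 (-0.63 ± 0.08) and from 13.0 ± 0.624 to 3.66 ± 0.566 CPM in ABC-1 (-1.83 ± 0.13). TRIP6, a LIM scaffold, fell in H460 from 130 ± 3.04 to 49.99 ± 3.26 CPM (-1.45 ± 0.05, adjusted p = 6.34e-07), as did the docking protein NEDD9 (-1.01 ± 0.05). NEDD9 also fell in H2023 (-0.80 ± 0.12). ZYX, zyxin, went up in ABC-1 with 32.7 ± 2.08 CPM in DMSO and 80.7 ± 0.219 CPM after CCS1477 (1.24 ± 0.06, adjusted p = 9.70e-09) and fell in H2023 (-0.68 ± 0.05, adjusted p = 8.03e-07). LPP, a LIM scaffold related to zyxin, fell in H460 (-0.59 ± 0.05) and H2023 (-0.84 ± 0.05). PTK2, the focal adhesion kinase, fell in ABC-1 (-0.41 ± 0.05).

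Receptors known to bind or depend on tensins fell in several lines. EGFR, the epidermal growth factor receptor, fell from 62.1 ± 1.42 to 41.5 ± 0.470 CPM in H460 (-0.65 ± 0.04), from 658 ± 19.95 to 428 ± 19.2 CPM in H2023 (-0.67 ± 0.04) and from 850.2 ± 29.9 to 453 ± 8.76 CPM in ABC-1 (-0.97 ± 0.04), with adjusted p of 9.72e-06, 1.67e-07 and 3.37e-09. MET, the hepatocyte growth factor receptor that TNS4 binds, fell in H2023 from 495 ± 12.3 to 273 ± 11.0 CPM (-0.91 ± 0.04, adjusted p = 1.48e-08). AXL fell in H2023 (-0.85 ± 0.04) and H460 (-1.47 ± 0.12), and IRS1, an insulin signalling adaptor, in H2023 (-1.53 ± 0.07) and H460 (-0.99 ± 0.09). CTNNB1, beta-catenin, rose in ABC-1 (0.58 ± 0.04). DLC1, a GTPase activating protein held at adhesions by tensins, rose in H460 from 1.62 ± 0.0522 to 5.17 ± 0.201 CPM (1.53 ± 0.12), and its relative STARD13 fell in ABC-1 (-0.99 ± 0.08). PEAK1, a pseudokinase scaffold, rose in H460, with 29.2 ± 0.768 CPM in DMSO and 66.8 ± 1.68 CPM after CCS1477 (1.12 ± 0.05, adjusted p = 1.05e-06). In ABC-1 PEAK1 fell, with 147 ± 4.37 CPM in DMSO and 102 ± 1.15 CPM after CCS1477 (-0.58 ± 0.04, adjusted p = 2.37e-07). Counts for the list were 4 lower and 5 higher of 10 in H460, against 27.9% and 28.2% of all tested genes. They were 5 lower and 2 higher of 9 in H2023, against 31.9% and 28.6%. ABC-1 had 4 lower and 3 higher of 8, against 32.6% and 33.5%.

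In the list of SRF and MRTF cytoskeletal genes, 6 of 14 fell and 3 rose in H460, against 27.9% and 28.2% of all tested genes. In H2023, 9 of 15 fell and 1 rose, against 31.9% and 28.6%. In ABC-1, 6 of 13 fell and 4 rose, against 32.6% and 33.5%. TPM4, a tropomyosin, fell in H460 (-0.73 ± 0.05) and in H2023 from 187 ± 13.2 to 96.6 ± 2.38 CPM (-1.003 ± 0.05, adjusted p = 6.15e-08). CALD1, caldesmon, fell in ABC-1, with 265 ± 2.43 CPM in DMSO and 125 ± 5.98 CPM after CCS1477 (-1.14 ± 0.04, adjusted p = 1.27e-09), and ACTG1, gamma-actin, rose there (0.99 ± 0.05). MRTFA, a cofactor of SRF, rose in H460 (0.66 ± 0.08) and fell in ABC-1 (-0.47 ± 0.04). FHL2, a LIM cofactor, fell in H2023 (-1.08 ± 0.10) and ABC-1 (-0.82 ± 0.07).

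**Figure D4:**
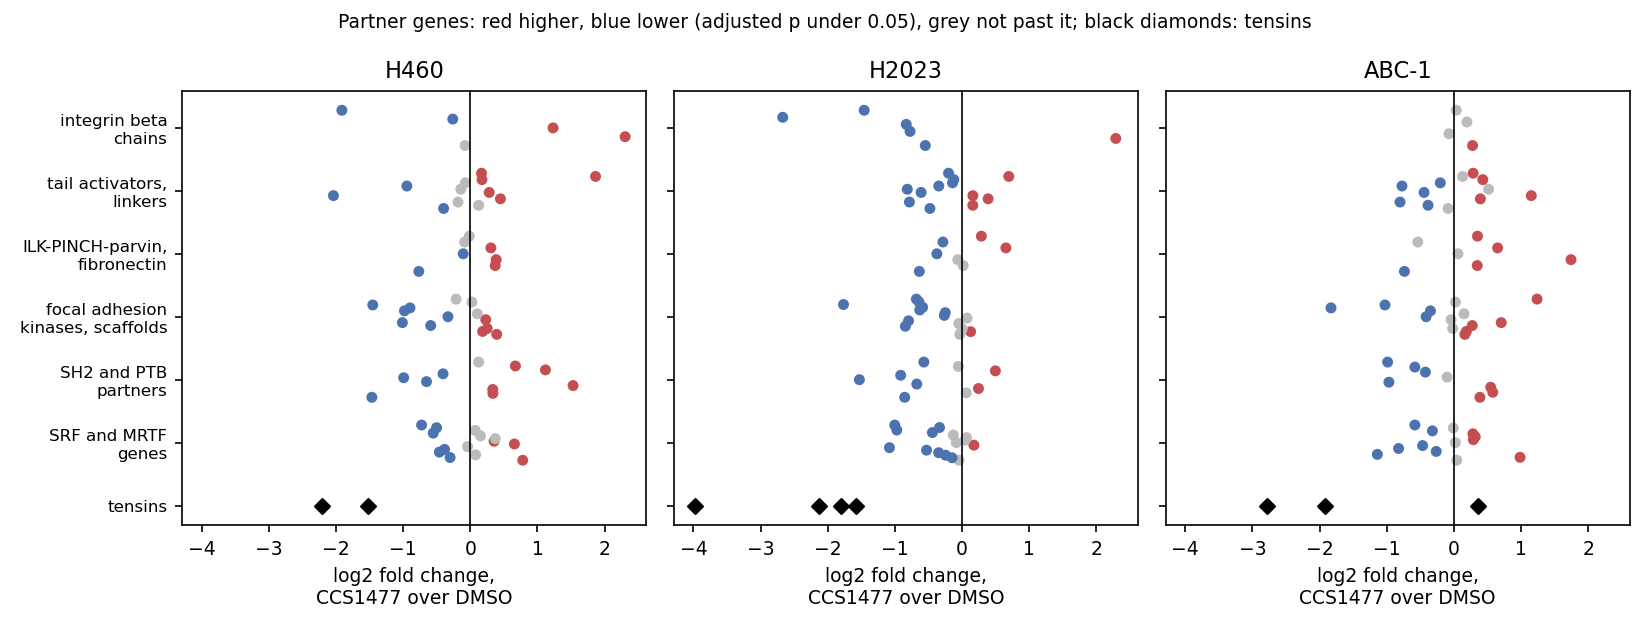
Log2 fold change of CCS1477 over DMSO for each tested partner gene, by list and cell line, in red or blue where adjusted p is under 0.05 and grey otherwise, with the tensins past the filter as black diamonds. In H2023, 39 of 63 partner genes are blue and 11 red, where 31.9% of all tested genes fell and 28.6% rose. The lowest partner gene is FERMT3 in H460 at -2.04, ITGB6 in H2023 at -2.67 and SRC in ABC-1 at -1.83.

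Of 53 partner genes tested in all 3 lines, 10 fell in each line, where 12.7% of 11747 genes did. They were FN1, SRC, TRIP6, EGFR, MET, TPM4, CALD1, TAGLN2, KANK1 and CNN2. TRIP6 in H2023 had 2.17 ± 0.114 CPM in DMSO and 0.518 ± 0.299 CPM after CCS1477. It passed the filter there through its DMSO libraries alone. The 5 that rose in each line, where 14.7% of all genes did, were PARVA, FLNA, CTNNB1, CRK and FERMT2. CNN2, CRK and FERMT2, like ITGB6, were named after their values were seen.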

How the data were processed

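RNA was extracted from the 3 lines, made into directional libraries and sequenced in read pairs on a DNBSEQ instrument, per the labels' protocols. The authors deposited log2 values, 1 table per line. The values show log2 of whole reads divided by a factor per library, plus a constant of 4. Below 1000 reads, each value came within 0.1 of a whole read. The sources used here do not give aligner, counting program or strand use, and the build is GRCh38, per the submitters' processing notes. Columns have the same names in each table, so the line was taken from the table. IDs were matched to symbols for all but 3 gene rows of H460.

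CPM were computed from recovered reads over all rows, and transcript rows held 9.19 to 10.7% of reads. Genes with 1 CPM or more in 3 or more of 6 libraries were fitted per line by limma-trend (limma 3.58.1, R 4.3.3) to the log2 values as deposited, two-sided, with Benjamini-Hochberg adjustment over all tested genes and a threshold of 0.05, and the script was tested on simulated data. The constant of 4 makes changes of low genes smaller. Counting intervals are exact (Clopper-Pearson) and cover counting error only.

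Tensins and lists were chosen with earlier results of these data known. From each list up to 4 called genes per line with the smallest p are named, and for likeness the 5 genes with the highest r and at least 5 CPM in a group. The likeness search left out clone, long intergenic, small RNA, antisense, host gene and mitochondrial names, and repeated symbols. Only genes listed in every line used were compared, 10983 for TNS1, TNS2 and TNS3 and 11007 for TNS4. One gene that this rule names is not reported here. Same-numbered replicates were not treated as pairs. Alternatives were other scalings, constants, filters, limma-voom, a replicate block and leaving out libraries, and adding transcript rows to their gene, chosen after seeing the data.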

Additional observations from a re-analysis of the deposited data

Results flagged for a closer look

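Some partner genes named in the text had treated libraries that all lay above the DMSO libraries in 1 line and all below them in another, and the difference between lines was not tested. Log2 changes of opposite sign in H2023 and ABC-1 were -0.25 and 0.99 for ACTG1, 0.16 and -0.38 for ACTN4, -0.82 and 0.52 for FLNC, -0.55 and 0.28 for ITGB1, and -0.68 and 1.24 for ZYX. ITGB4 had 1.23 in H460 and -0.77 in H2023. For H460, H2023 and ABC-1 in turn, ITGB5 had -0.26, -0.83 and 0.19, and LPP -0.59, -0.84 and 0.27. MRTFA had 0.66, 0.18 and -0.47 in the same order, and PEAK1 1.12, 0.50 and -0.58. TLN1 had 0.17, -0.12 and 0.43. The values of FLNC (adjusted p = 0.0631 by limma) and ITGB5 (0.0654) in ABC-1 did not pass the threshold. FLNC passed the filter on low values in ABC-1 through its treated libraries alone. The call of ITGB5 in H460 was lost under 5 alternatives. PTK2 had 0.23 in H460 and -0.41 in ABC-1, and STARD13 0.67 and -0.99.

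One transcript row outside the gene rows stood above its controls. The TNS1 transcript ENST00000651849 had 33 reads in CCS1477 replicate 1 of H2023 and 0 reads in each of the other libraries of that line, and the TNS1 gene row had 0 reads in that library only.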

How the results depend on the processing

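No tensin change turned its sign under any alternative run. TNS4 in H2023 was -4.37 with a constant of 1 and -4.41 with limma-voom, and TNS1 in ABC-1 was -2.72 with scaling by library totals and -2.73 with limma-voom, against -1.86 with either for TNS3 in ABC-1. The untreated level of TNS3 in ABC-1 was 513.976 CPM with its transcript row added. TNS1 in H2023 was -2.25 with a constant of 1 and -2.48 with limma-voom. TNS2 in ABC-1 ran from 0.22 without DMSO replicate 1 to 0.54 without CCS1477 replicate 3. The call of ITGB5 in H460 ended with scaling by library totals, limma-voom, or without DMSO replicate 3 or CCS1477 replicate 2 or 3 (adjusted p 0.0503 to 0.0648). Scaling by library totals moved the median of all genes by 0.05 to 0.07, and gave 60.2% higher among all calls in H460 in place of 50.3%. Deviations of same-numbered libraries correlated weakly, at 0.011 to 0.097 in H460, 0.034 to 0.044 in H2023 and -0.104 to -0.043 in ABC-1. Whether replicate numbers pair the libraries was not settled by these values. The replicate block left the log2 change of TNS3 in H460 at -1.52, and the lower partner genes numbered 20 in ABC-1, 38 in H2023 and 22 in H460. Genes under about 1 CPM are limited by read number.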
